A study of Mus musculus with 6 samples.

Results

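The genes that write, maintain and erase cytosine methylation were described in RNA-seq gene counts of brain tumours from a mouse model of WNT medulloblastoma, a hindbrain tumour driven by active WNT signalling. The group was a list of 10 gene symbols (Dnmt1, Dnmt3a, Dnmt3b, Uhrf1, Uhrf2, Hells, Tet1, Tet2, Tet3 and Tdg). All 10 were present among 34591 gene rows, and all 10 passed the filter on low counts that left 16768 genes for testing. The labels name 3 libraries as sh2-Ift88, for a short hairpin RNA against the intraflagellar transport gene Ift88, and 3 as control. Both groups carry the tumour, and the labels give no allele, strain, promoter, age, clone or pooling for either. Separate animals are not stated either, so p-values measure only the spread between these samples, which may be technical.

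DNA methylation in mammals is laid down on CpG dinucleotides by Dnmt3a and Dnmt3b and is copied onto the new strand after replication by Dnmt1. Uhrf1 binds hemimethylated CpG sites behind the replication fork and recruits Dnmt1, and the remodeller Hells opens chromatin for the same machinery. The Tet dioxygenases oxidise 5-methylcytosine, and Tdg excises the more oxidised bases so that base excision repair can restore an unmethylated cytosine. Genes of the maintenance branch are known as genes of dividing cells, whereas Dnmt3a and Tet3 are also well expressed in neurons.

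The promoters of the maintenance genes are shown because Uhrf1 gave the smallest p among the 10 genes. The windows shown for Uhrf1, Dnmt1 and Hells also hold exact matches to the motif forms given below. The window of Uhrf2, the paralogue of Uhrf1, holds no exact match. Sequences are those of RefSeq for GRCm38.p6, a later build than the mm9 named for the counts, and run 5′ to 3′ from 250 bases before to 50 bases after an annotated start. Capitals mark matches to any of TTTGGCGC, TTTCGCGC, TTTCCCGC or TTTGCCGC on either strand, which are forms of the motif known for E2F factors.
Uhrf1, chr17:56304063-56304362, plus strand: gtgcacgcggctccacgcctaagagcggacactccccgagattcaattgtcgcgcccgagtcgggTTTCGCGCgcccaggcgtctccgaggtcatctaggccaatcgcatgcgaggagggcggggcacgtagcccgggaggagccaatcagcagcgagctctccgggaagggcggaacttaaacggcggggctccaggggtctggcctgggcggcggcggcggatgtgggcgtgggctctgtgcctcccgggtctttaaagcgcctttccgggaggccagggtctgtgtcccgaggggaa
Dnmt1, chr9:20952574-20952873, minus strand: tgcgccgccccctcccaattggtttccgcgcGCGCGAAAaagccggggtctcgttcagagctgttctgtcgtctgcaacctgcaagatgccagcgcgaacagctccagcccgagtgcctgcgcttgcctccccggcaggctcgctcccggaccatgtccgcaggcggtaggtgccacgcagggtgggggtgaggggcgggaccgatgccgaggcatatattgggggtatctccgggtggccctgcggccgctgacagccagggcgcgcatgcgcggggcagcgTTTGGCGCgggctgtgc
Hells, chr19:38930740-38931039, plus strand: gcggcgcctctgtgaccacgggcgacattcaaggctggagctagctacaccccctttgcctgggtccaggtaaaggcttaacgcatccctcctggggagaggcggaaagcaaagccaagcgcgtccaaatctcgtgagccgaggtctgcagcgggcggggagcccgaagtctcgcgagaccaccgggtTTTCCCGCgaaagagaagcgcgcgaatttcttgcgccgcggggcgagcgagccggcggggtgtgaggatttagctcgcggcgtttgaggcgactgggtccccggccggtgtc
Uhrf2, chr19:30030263-30030562, plus strand: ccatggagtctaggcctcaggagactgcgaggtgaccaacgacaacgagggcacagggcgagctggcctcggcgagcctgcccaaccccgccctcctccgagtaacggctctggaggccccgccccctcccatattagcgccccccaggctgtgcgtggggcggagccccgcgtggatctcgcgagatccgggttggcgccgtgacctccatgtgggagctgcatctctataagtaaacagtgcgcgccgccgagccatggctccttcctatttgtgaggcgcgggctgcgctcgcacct
The match in Uhrf1 starts 185 bases before the annotated start, that in Hells 62 bases before it, and those in Dnmt1 219 bases before and at base 34 after it. These 3 genes were the only ones of the 10 with a match in any of their 15 windows, and 2.26% of all 32851 windows and 2.60% of all 27025 genes held one. The windows of Uhrf1, Dnmt1 and Hells shown held 33, 33 and 34 CpG dinucleotides and that of Uhrf2 held 28, against a median of 7 over all windows. Each form searched contains a CpG. The share with a match was not counted among windows of like CpG count, so an excess of matches cannot be read from these shares. The other window of Uhrf1 and the other 2 of Dnmt1 held no match. Only exact matches of 8 bases were searched for. The Uhrf2 window holds TTGGCGC and the other Uhrf1 window TTCCCGC, each a form searched without its first T. Such shorter forms were not counted over all windows. A match is a description of the sequence and not of binding.

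Gene counts summed to between 26802618 and 33772559 per library. Ift88 itself, the target of the hairpin, was at 14.7, 16.0 and 14.4 CPM in the sh2-Ift88 libraries and at 13.8, 19.7 and 13.7 CPM in controls, a log2 fold change of -0.06 (SE 0.27). Its level does not check the labels, so each difference given is one between libraries as labelled. Levels are in CPM, counts scaled to library size with TMM factors, and the counts of the 10 genes ran from 198 (Tet1, control 1) to 7809 (Dnmt1, control 3). Reads of olfactory receptor genes, the odour receptors of nasal sensory neurons, were found for 387 to 564 of 1249 such genes in sh2-Ift88 2, sh2-Ift88 3 and control 2, and for 24 to 38 in sh2-Ift88 1, control 1 and control 3. In sh2-Ift88 3, 4 gene rows (Gm10800, Gm16869, Gm10718 and Gm10722) took 40.5% of the counts, against 8.88% or less in any other library, and its TMM factor was 0.598. The 10 mature neuron markers, all of which passed the filter, averaged 3.71, 3.17 and 0.66 log2 CPM in the sh2-Ift88 libraries and 0.66, 3.45 and 4.91 in controls. Among them the granule cell gene Gabra6 was at 0 in control 1, whereas Stmn2 was at 40.2 CPM in that library. Stmn2 was at 61.4 CPM in control 3 and at 8.78 CPM or less in every other library. The WNT target Axin2 was at 320.1 CPM or more and the WNT factor Lef1 at 68.95 CPM or more in every library. Wif1 was at 1346 CPM or more, and the WNT inhibitor Dkk4 at 0.69 CPM or less. Nkd1 ran from 263.3 CPM in control 2 to 875.9 CPM in control 1. Sp5 ran from 2.69 CPM in control 3 to 141.7 CPM in control 1. The mean of these 6 WNT markers was lowest in control 3, at 5.66 log2 CPM, against 6.38 or more elsewhere.

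None of the 10 genes passed the test between the groups. At an adjusted p of 0.05 (edgeR's quasi-likelihood test, Benjamini-Hochberg over all genes) 0 of 10 were called, beside 0 of 16768 genes (0%), and the smallest adjusted p of any gene was 0.9995. Before adjustment 541 genes (3.23%) lay under 0.05, and Uhrf1 was the 1 member among them. DESeq2 called 58 genes and none of the 10. The estimate was lower in sh2-Ift88 for 7 of the 10, against 51.3% of all genes tested, and the median log2 fold change of the 10 was -0.30, against -0.01 for all genes. The sh2-Ift88 libraries all lay below the controls for 2 of the 10, Uhrf1 and Tet2, beside 3.69% of all genes, and all lay above them for 0 of the 10, beside 4.70%.

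**Figure D1:**
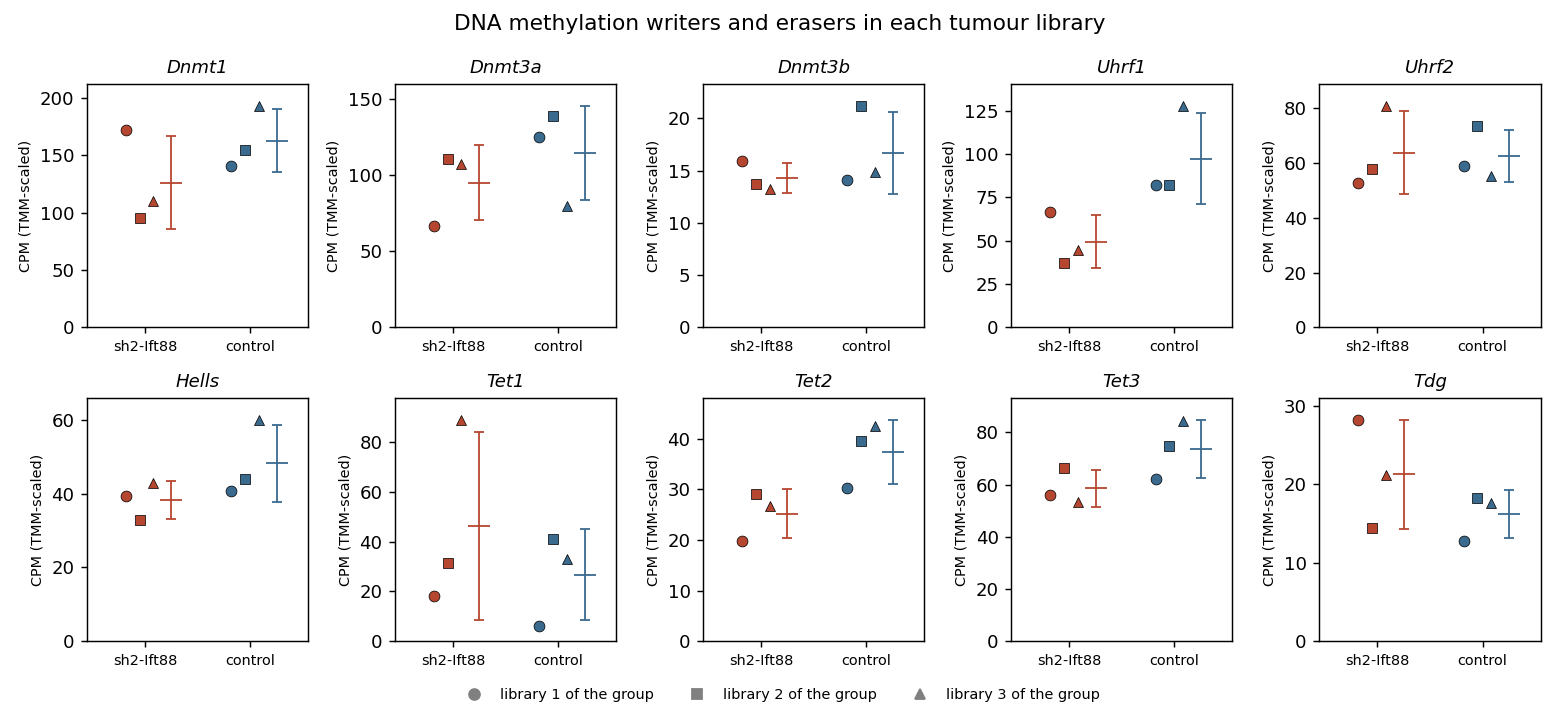
Level of each gene in each library, in CPM with TMM-scaled library sizes, for the 3 sh2-Ift88 libraries (left, red) and the 3 control libraries (right, blue), with the mean and SD of each group beside the points. The groups do not overlap for Uhrf1 and Tet2, and Tet1 spans 5.996 to 88.9 CPM.

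Of the maintenance genes, Uhrf1 had the lowest estimate. Uhrf1 (ENSMUSG00000001228.14, on chromosome 17), the reader that brings Dnmt1 to replicated DNA, was at 66.7, 37.2 and 44.4 CPM in the sh2-Ift88 libraries and at 82.3, 82.1 and 127.8 CPM in controls. Each sh2-Ift88 library was below each control, with sh2-Ift88 1 nearest to them and control 3 standing above the other 2 controls. The means were 49.5 ± 15.4 CPM in sh2-Ift88 and 97.4 ± 26.4 CPM in controls (SD, n = 3 each). On the log2 scale the fold change was -0.98 (SE 0.31), or 50.8% of the control level with a 95% interval of 30.5% to 84.7% (edgeR adjusted p = 0.9995). It stayed below 0 in all 17 alternatives, from -1.29 with library totals alone to -0.70 within the 3 libraries that carry few olfactory receptor reads, and passed in none of them. Within the other 3, where control 2 stands alone and is assumed to vary like the rest, it was -1.02.

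Dnmt1 (ENSMUSG00000004099.16, on chromosome 9), which copies the mark after replication, did not separate the groups. It was at 172, 95.6 and 110.1 CPM in the sh2-Ift88 libraries and at 140.5, 154 and 193 CPM in controls. The library sh2-Ift88 1 lay above both control 1 and control 2, while sh2-Ift88 2 and 3 lay below all controls. Its log2 fold change was -0.37 (SE 0.30), an interval of 48.0% to 125% of the control level. Leaving out sh2-Ift88 1 moved it to -0.68, leaving out sh2-Ift88 2 or control 3 to -0.21 or -0.23, and within sh2-Ift88 1, control 1 and control 3, the libraries with few olfactory receptor reads, it was 0.006, against -0.60 within those with many.

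Hells (ENSMUSG00000025001.11, on chromosome 19), the chromatin remodeller needed for methylation of repeats, was at 39.3, 32.8 and 43.0 CPM in the sh2-Ift88 libraries and at 40.6, 44.0 and 60.0 CPM in controls. The groups overlap by 1 library, sh2-Ift88 3, which lay above control 1. Its log2 fold change was -0.33 (SE 0.25), moving to -0.15 without control 3, with -0.23 within the libraries with many olfactory receptor reads and -0.40 within those with few. Uhrf2 (ENSMUSG00000024817.13, on chromosome 19), the paralogue of Uhrf1 that does not stand in for it in maintenance, was at 52.6, 57.9 and 81.0 CPM in the sh2-Ift88 libraries and at 59.1, 73.5 and 55.2 CPM in controls. Its groups overlap widely, and its log2 fold change of 0.03 (SE 0.26) bounds the level at 67.3% to 154% of control and turns to -0.35 with library totals alone.

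**Figure D2:**
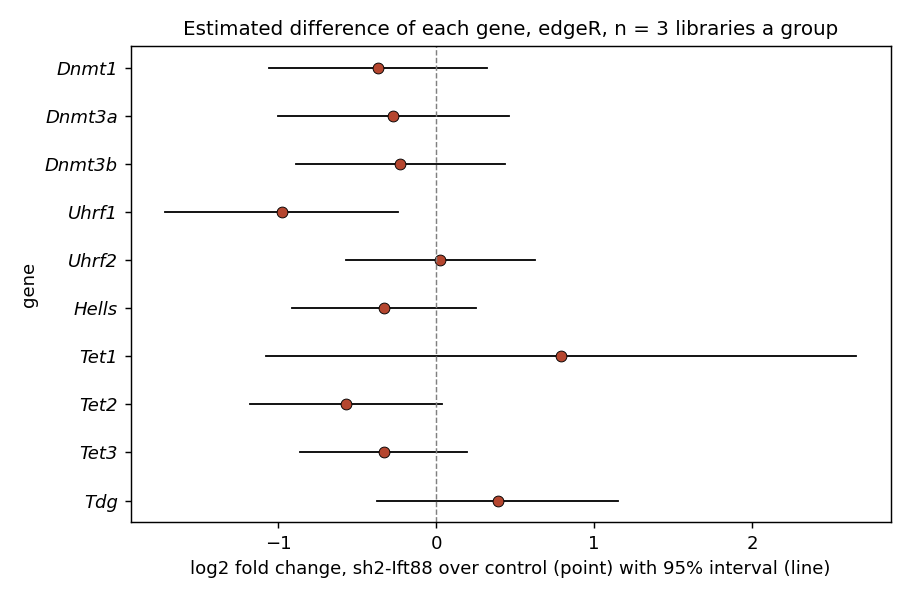
Log2 fold change of sh2-Ift88 over control for each gene (points) with its 95% interval from edgeR (lines), n = 3 libraries a group. The interval of Uhrf1 runs from -1.71 to -0.24 before any adjustment for the number of genes tested, those of the other 9 genes include 0, and that of Tet1 is the widest of the 10.

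Values taken within a library do not depend on its scaling. Per kilobase of exon, the ratio of Uhrf1 to Dnmt1 was 0.671, 0.675 and 0.699 in the sh2-Ift88 libraries and 1.01, 0.921 and 1.15 in controls. The 3 sh2-Ift88 libraries lay close together and below every control, although Dnmt1 itself ran from 95.6 to 172 CPM among them. The mean ratio was 0.681 ± 0.015 in sh2-Ift88 and 1.03 ± 0.114 in controls (SD, n = 3 each; two-sided exact permutation p = 0.1, the smallest that 3 against 3 allows). The ratio of Uhrf1 to Hells was 2.87, 1.92 and 1.75 in the sh2-Ift88 libraries and 3.43, 3.16 and 3.61 in controls, likewise without overlap. The ratio of Uhrf1 to Uhrf2 was 2.56, 1.30 and 1.11 in sh2-Ift88 and 2.81, 2.25 and 4.67 in controls, where sh2-Ift88 1 lay above control 2. These ratios were chosen after the levels were seen. Of the 45 ratios between 2 of the 10 genes, 7 had groups that did not overlap, and 3 of these 7 had Uhrf1 in them. The share over ratios between any 2 genes was not counted, so the 7 of 45 cannot be called many or few. Against the other tested genes with reads in every library, the ratio of Uhrf1 was lower in every sh2-Ift88 library for 40.1% of them, so a ratio of this kind was common for Uhrf1.

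**Figure D3:**
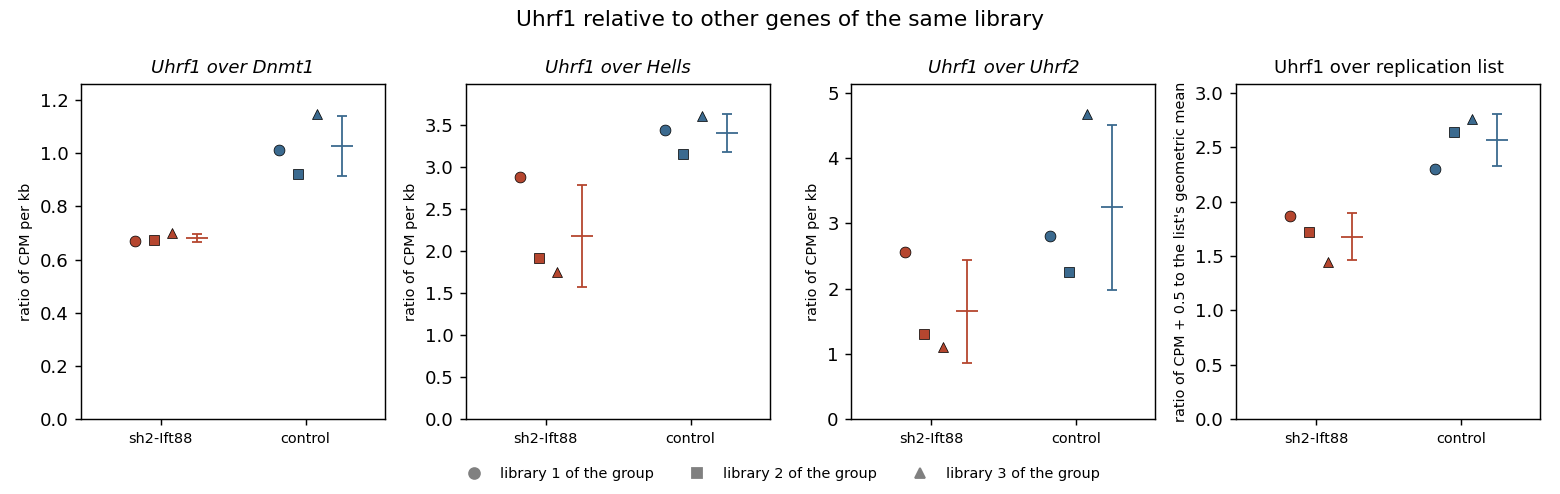
Ratio of Uhrf1 to Dnmt1, Hells and Uhrf2 in CPM per kilobase of exon, and to the geometric mean of 29 replication genes in CPM + 0.5, in each sh2-Ift88 library (left, red) and each control (right, blue), with the mean and SD of each group. The ratio to Dnmt1 lies between 0.671 and 0.699 in sh2-Ift88 and between 0.921 and 1.15 in controls.

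Replication genes, which peak in the same phase of the cell cycle as Uhrf1, had lower estimates in sh2-Ift88 for 25 of 29 listed genes and higher ones for 4, with 0 called in either direction and a median log2 fold change of -0.37. Their mean level overlapped, at 5.17, 4.45 and 4.96 log2 CPM in the sh2-Ift88 libraries and 5.17, 4.97 and 5.54 in controls. Cdc6, which loads the replicative helicase, was at 9.99, 8.80 and 11.5 CPM in the sh2-Ift88 libraries and at 19.3, 15.5 and 35.3 CPM in controls. Chaf1a, the large subunit of the chromatin assembly factor that follows the fork, was at 27.1, 18.6 and 22.9 CPM in sh2-Ift88 and at 33.6, 37.4 and 52.2 CPM in controls, and the cyclin Ccne2 at 32.2, 21.7 and 35.5 CPM in sh2-Ift88 and at 42.5, 35.6 and 77.6 CPM in controls. These 3 of the 29, like Uhrf1, had every sh2-Ift88 library below every control, beside 3.69% of all genes. Of mitosis genes 25 of 25 had lower estimates with 0 called (median -0.31), and their mean level was 5.67, 4.57 and 6.22 log2 CPM in sh2-Ift88 and 5.60, 6.04 and 6.36 in controls. The kinesin Cenpe was at 37.6, 21.1 and 55.8 CPM in sh2-Ift88 and at 38.8, 99.2 and 82.8 CPM in controls. Birc5, the survivin subunit of the chromosomal passenger complex, was at 19.9, 9.88 and 27.2 CPM in sh2-Ift88 and at 26.7, 28.9 and 43.1 CPM in controls. The mitotic kinase Plk1 was at 11.7, 5.71 and 15.4 CPM in sh2-Ift88 and at 13.2, 17.9 and 24.6 CPM in controls. In bulk tumours, fewer dividing cells and less RNA per dividing cell cannot be told apart.

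Set against the mean of the replication list in the same library, Uhrf1 was higher by 0.90, 0.79 and 0.53 (log2) in the sh2-Ift88 libraries and by 1.20, 1.40 and 1.47 in controls, without overlap (difference -0.62, two-sided exact permutation p = 0.1, the smallest possible). The groups overlapped for Dnmt1 on this scale, at 2.27, 2.13 and 1.83 in sh2-Ift88 and 1.97, 2.31 and 2.06 in controls (difference -0.04, two-sided exact permutation p = 0.9). Hells was at 0.15, 0.61 and 0.48 in sh2-Ift88 and 0.19, 0.51 and 0.38 in controls (difference 0.05, two-sided exact permutation p = 0.8). Of the 29 single replication genes, 17 gave a ratio with Uhrf1 that was lower in every sh2-Ift88 library than in any control, beside 40.1% of all genes. How many of all genes lack overlap relative to the mean of the replication list was not counted.

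The order of Hells, Uhrf1 and Dnmt1 in their relation to dividing-cell genes across the 6 libraries depended on the list. With replication and mitosis genes together Hells had the highest r of the 10. Its Pearson r with their mean level was 0.901 and its Spearman rho 0.886 (exact permutation p = 0.0389 and 0.0333), and r was 0.736 without sh2-Ift88 2 and control 3, the 2 libraries farthest from the median. For Uhrf1, r was 0.770 and rho 0.486 (exact permutation p = 0.075 and 0.356). For Dnmt1, r was 0.767 and rho 0.600 (exact permutation p = 0.0528 and 0.242). Without the same 2 libraries r turned to -0.77 for Uhrf1 and -0.70 for Dnmt1, so with this list both relations rested on those libraries. Adjusted over the 10 genes the exact permutation p was 0.25 for each of these 3 r values, and 0.333 for the rho of Hells and 0.803 for the rho of Uhrf1 and Dnmt1. With replication genes alone r was 0.884 for Uhrf1, 0.883 for Dnmt1 and 0.863 for Hells (exact permutation p = 0.0236, 0.0139 and 0.0625; 0.118, 0.118 and 0.208 adjusted over the 10), and rho was 0.943, 0.829 and 0.543 (exact permutation p = 0.0167, 0.0583 and 0.297; 0.167, 0.292 and 0.621 adjusted). With that list and without the same 2 libraries r was 0.43 for Uhrf1 and 0.55 for Dnmt1 and turned to -0.94 for Hells. With mitosis genes alone Hells had the highest r again, at 0.848, and Uhrf1 and Dnmt1 had 0.632 and 0.627. None of the adjusted values passed 0.05. Within the 3 libraries with many olfactory receptor reads, or the 3 with few, a correlation has too few libraries to be given.

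**Figure D4:**
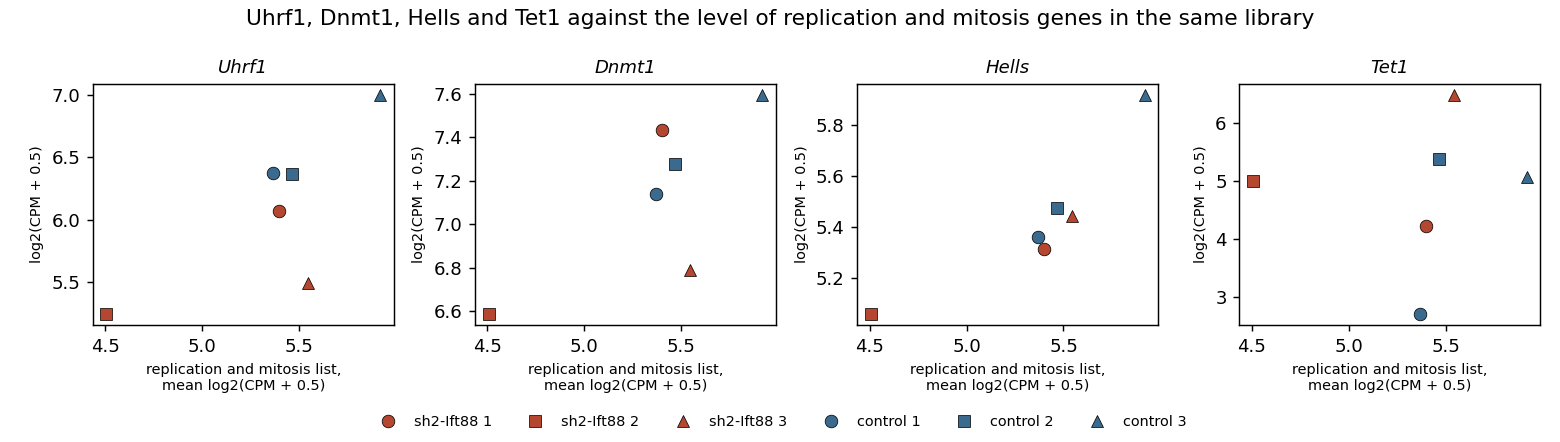
Level of Uhrf1, Dnmt1, Hells and Tet1, in log2(CPM + 0.5), against the mean of 54 replication and mitosis genes in the same library, for 3 sh2-Ift88 libraries (red) and 3 controls (blue). The library sh2-Ift88 2 is lowest and control 3 highest on the x axis and for Uhrf1, Dnmt1 and Hells, while Tet1 shows another order.

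The gene most like Uhrf1 across the 6 libraries was Chaf1a, with a Pearson r of 0.985 on the log2 scale, followed by Prrx2 (0.980) and Ndufa11 (0.979). Among 11727 genes with a mean of at least 5 CPM, 21 reached an r of 0.95 with Uhrf1 and 27 with Dnmt3a, so such values over 6 libraries were not limited to the genes named here. The number to be expected from unrelated genes was not computed. For Dnmt3a the most alike were Caskin2 (0.997), Acbd5 (0.996) and Cflar (0.994).

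The de novo methyltransferases did not separate the groups. Dnmt3a (ENSMUSG00000020661.15, on chromosome 12), which sets new methylation and is the main methyltransferase of neurons, was at 66.4, 110.4 and 107 CPM in the sh2-Ift88 libraries and at 125, 139 and 79.6 CPM in controls. The 2 lowest libraries, sh2-Ift88 1 and control 3, came 1 from each group. They also had the highest mean level of the neuron markers of the 6. The part of neuronal RNA in this order was not tested. For Dnmt3a the log2 fold change was -0.27 (SE 0.31), an interval of 49.9% to 137% of control. It moved to -0.087 without sh2-Ift88 1 and to -0.48 without control 3, and was -0.36 within the libraries with many olfactory receptor reads and -0.65 within those with few. Dnmt3b (ENSMUSG00000027478.15, on chromosome 2), the de novo enzyme of early embryos, was at 15.9, 13.7 and 13.2 CPM in the sh2-Ift88 libraries and at 14.1, 21.2 and 14.9 CPM in controls. All libraries but control 2 lay between 13.2 and 15.9 CPM, and the log2 fold change was -0.23 (SE 0.28), moving to -0.024 without control 2. It was -0.67 within the libraries with many olfactory receptor reads and 0.10 within those with few.

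Per kilobase of exon Dnmt1 was the most abundant of the 3 methyltransferases in all 6 libraries. It stood at 17.1 ± 5.52 CPM per kb in sh2-Ift88 and 22.1 ± 3.69 in controls (SD, n = 3 each), Dnmt3a at 5.69 ± 1.48 in sh2-Ift88 and 6.87 ± 1.86 in controls, and Dnmt3b at 2.80 ± 0.283 in sh2-Ift88 and 3.27 ± 0.766 in controls. Dnmt1 made up 76.7%, 58.2% and 62.3% of the sum of the 3 in the sh2-Ift88 libraries and 65.0%, 62.6% and 77.3% in controls. Dnmt3a made up 13.1%, 29.8% and 26.9% in sh2-Ift88 and 25.6%, 24.9% and 14.1% in controls. The libraries sh2-Ift88 1 and control 3 thus shared a make-up rich in Dnmt1 and poor in Dnmt3a, while Dnmt3a held 24.9% to 29.8% in the other 4. Exon lengths came from GENCODE M21 and not from the annotation used for counting. They are unions over all transcripts of a gene, 7377 bases for Dnmt1 and 16642 for Dnmt3a, and the shares depend on them. Without division by length, Dnmt3a was above Dnmt1 in sh2-Ift88 2, at 110.4 against 95.6 CPM, and below it in every other library. The part of transcript choice in the shares was not tested. An antisense transcript, Dnmt3aos, overlaps exons of Dnmt3a in that annotation, and no source used here gives the strand setting of the counts.

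**Figure D5:**
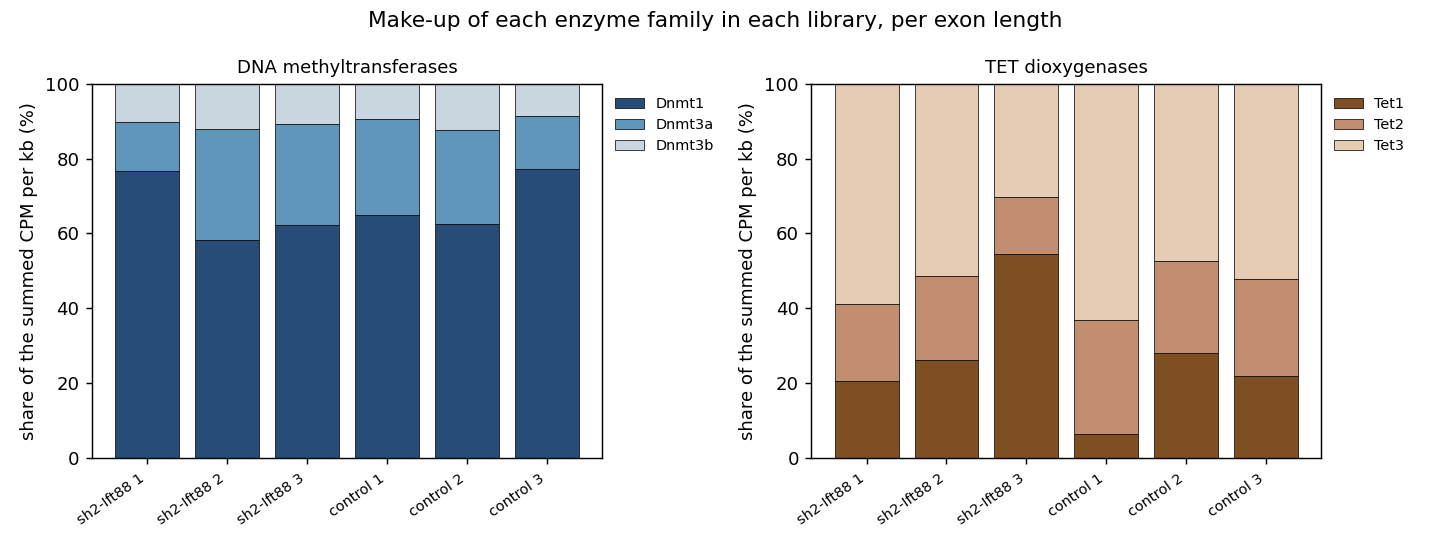
Share of each methyltransferase (left panel) and each Tet dioxygenase (right panel) in the summed CPM per kilobase of exon of its family, in each sh2-Ift88 library and then each control. Dnmt3a holds 13.1% in sh2-Ift88 1 and 14.1% in control 3, and Tet1 holds 54.6% in sh2-Ift88 3 and 6.57% in control 1.

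Of the Tet dioxygenases, Tet2 had groups that did not overlap, Tet3 had a lower estimate with overlap, and Tet1 varied most between single libraries. Tet2 (ENSMUSG00000040943.12, on chromosome 3), which lacks the CXXC domain of its relatives, was at 19.7, 29.0 and 26.7 CPM in the sh2-Ift88 libraries and at 30.2, 39.4 and 42.4 CPM in controls. The gap was narrow, with sh2-Ift88 2 just below control 1. This gave a log2 fold change of -0.57 (SE 0.26), or 67.3% of the control level with an interval of 44.2% to 103% (edgeR adjusted p = 0.9995). It ran from -0.92 to -0.44 over 17 alternatives with no call, with -0.51 within the libraries with many olfactory receptor reads and -0.92 within those with few. The antisense gene Gm42567 overlaps its exons in GENCODE M21. Tet3 (ENSMUSG00000034832.15, on chromosome 6), the Tet enzyme of the zygote and of neurons, was at 55.9, 66.5 and 53.3 CPM in the sh2-Ift88 libraries and at 62.2, 74.7 and 84.4 CPM in controls. There sh2-Ift88 2 lay above control 1, and the log2 fold change was -0.33 (SE 0.23), with -0.33 within the libraries with many olfactory receptor reads and -0.43 within those with few.

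Tet1 (ENSMUSG00000047146.17, on chromosome 10), known from stem cells and germ cells, was at 18.1, 31.6 and 88.9 CPM in the sh2-Ift88 libraries and at 5.996, 41.0 and 33.1 CPM in controls. The highest and the lowest library, sh2-Ift88 3 and control 1, differed 14.8-fold, where the median over all genes tested was 2.49-fold. These were the 2 libraries with the lowest mean level of the neuron markers, so Tet1 was not ordered by that mean. In the libraries with many olfactory receptor reads, Tet1 was at 31.6, 88.9 and 41.0 CPM (sh2-Ift88 2 and 3, control 2), and in those with few at 18.1, 5.996 and 33.1 CPM (sh2-Ift88 1, control 1 and 3). A fold change of 0.79 on the log2 scale (SE 0.79) turned to -0.14 without sh2-Ift88 3, and was 0.55 within the libraries with many such reads and -0.17 within those with few. Per kilobase of exon Tet3 was the most abundant of the 3 in every library except sh2-Ift88 3, where Tet1 made up 54.6% and Tet3 30.3%. Tet1 made up 20.6% and 26.4% in sh2-Ift88 1 and 2 and 6.57%, 28.0% and 22.1% in controls.

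Tdg (ENSMUSG00000034674.18, on chromosome 10), the glycosylase that removes oxidised methylcytosine and thymine opposite guanine, was at 28.2, 14.4 and 21.2 CPM in the sh2-Ift88 libraries and at 12.8, 18.3 and 17.6 CPM in controls. It was highest in sh2-Ift88 1 and 3, while sh2-Ift88 2 lay among the controls. Its log2 fold change of 0.39 (SE 0.33) was 0.11 without sh2-Ift88 1, and was -0.054 within the libraries with many olfactory receptor reads and 0.85 within those with few, where sh2-Ift88 1 stands alone. In that library the choroid plexus gene Ttr was at 1389 CPM, against 0.739 CPM or less in each other library. Of the 5 choroid plexus markers, Kl, Folr1 and Clic6 were also highest there, with Clic6 at 13.4 CPM in control 1. The remaining marker, Aqp1, went another way. Aqp1 was at 25.8, 201.4 and 62.15 CPM in the sh2-Ift88 libraries and at 111.5, 10.3 and 20.0 CPM in controls. The mean of the 5 was 5.51, 1.81 and 1.33 log2 CPM in the sh2-Ift88 libraries and 1.89, 0.75 and 0.33 in controls. The part of these cells in the Tdg level was not tested. Relative to the replication list, Tdg was at -0.32, -0.56 and -0.52 (log2) in the sh2-Ift88 libraries and at -1.44, -0.74 and -1.36 in controls, without overlap (difference 0.71, two-sided exact permutation p = 0.1, the smallest possible). The mean of the list itself differed by -0.365 (log2, sh2-Ift88 minus control), which enters this difference. Levels relative to the list were computed for all 10 genes, and only Uhrf1 and Tdg lacked overlap. Of the 7 ratios between members whose groups did not overlap, 4 were of Dnmt1, Uhrf1, Hells or Tet2 to Tdg, lower in sh2-Ift88 in each case. Over all other tested genes with reads in every library, the ratio to Tdg was lower in every sh2-Ift88 library for 6.37%. These 4 ratios share the Tdg values and are not independent. For levels relative to the replication list, no such share over all genes was counted. Exons of Glt8d2, a coding gene on the other strand, overlap those of Tdg in GENCODE M21, and Glt8d2 was at 4.98, 3.09 and 3.50 CPM in sh2-Ift88 and at 3.24, 2.76 and 2.30 CPM in controls.

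Apart from Tet1, the spread of the 10 genes within the groups was below the median of all genes tested, which was not matched for level. Across all libraries, the highest over the lowest level was 3.43-fold for Uhrf1, above the median of 2.49-fold over all genes. It was 2.21-fold or less for the rest apart from Tet1. The biological coefficient of variation estimated by edgeR was 0.261 for Tet3, 0.316 for Uhrf1 and 0.663 for Tet1, with a median of 0.31 over the 10 genes and of 0.427 over all genes tested.

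The wider machinery gave 0 calls in either direction in each list that follows. Of 14 further maintenance and targeting factors 12 were tested, with 7 lower and 5 higher estimates. Among them Cdca7, the partner that recruits Hells to chromatin, was at 47.6, 35.2 and 54.3 CPM in the sh2-Ift88 libraries and at 53.7, 66.1 and 132.9 CPM in controls. Its paralogue Cdca7l was at 18.7, 10.4 and 14.6 CPM in sh2-Ift88 and at 15.3, 27.2 and 45.3 CPM in controls. Both overlapped by 1 library of each group, and control 3 was the highest for both. Zbtb24, a zinc finger factor that activates Cdca7, was at 15.3, 14.0 and 15.1 CPM in sh2-Ift88 and at 12.6, 9.53 and 8.92 CPM in controls. It was the 1 gene of the 12 with every sh2-Ift88 library above every control, beside 4.70% of all genes.

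Base excision repair after Tdg had 7 of 14 estimates lower and 7 higher. The demethylation-linked stress gene Gadd45g was at 13.02, 7.59 and 7.12 CPM in the sh2-Ift88 libraries and at 30.0, 13.5 and 16.1 CPM in controls (log2 fold change -1.10, SE 0.42). The scaffold Xrcc1 was at 31.9, 26.9 and 34.0 CPM in sh2-Ift88 and at 34.9, 38.1 and 51.3 CPM in controls. For these 2 of the 14, every sh2-Ift88 library was below every control, beside 3.69% of all genes. For 0 of the 14 every one was above, beside 4.70%. The genes named were those of smallest p. The repair polymerase Polb was at 25.9, 24.5 and 35.7 CPM in sh2-Ift88 and at 29.9, 17.8 and 17.5 CPM in controls.

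Methyl-CpG readers had 2 of 7 estimates lower and 5 higher, with a median of 0.15. Mbd1, which binds methylated promoters, was at 47.6, 81.4 and 290.0 CPM in the sh2-Ift88 libraries and at 113, 70.3 and 33.9 CPM in controls, so that sh2-Ift88 3 stood apart as it did for Tet1. Mbd3, of the NuRD complex, was at 42.2, 28.2 and 31.9 CPM in sh2-Ift88 and at 22.4, 31.8 and 35.7 CPM in controls, and Mbd2 at 38.2, 68.8 and 81.1 CPM in sh2-Ift88 and at 87.6, 54.4 and 76.4 CPM in controls. Of 17 genes of methyl donor and 2-oxoglutarate supply, 13 had lower and 4 higher estimates, with a median of -0.20. Mthfd2, a mitochondrial folate enzyme, was at 36.8, 37.1 and 31.6 CPM in sh2-Ift88 and at 15.3, 27.4 and 30.9 CPM in controls. It was the 1 gene of the 17 with every sh2-Ift88 library above every control, beside 4.70% of all genes. Its relative Mthfd1l was at 26.3, 13.4 and 11.3 CPM in sh2-Ift88 and at 21.4, 17.3 and 55.5 CPM in controls.

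Germline genes known to be silenced by promoter methylation were near 0 in most libraries, and 5 of 18 passed the filter on low counts. Mov10l1, a helicase of the piRNA pathway, was at 5.09, 1.55 and 2.87 CPM in the sh2-Ift88 libraries and at 0.061, 0.065 and 0 CPM in controls, or 180, 46 and 46 reads in sh2-Ift88 and 2, 2 and 0 reads in controls. Tdrd1 was at 0.085, 1.01 and 3.06 CPM in sh2-Ift88 and at 0.303, 0.423 and 0.247 CPM in controls, and Sycp1 at 0.594, 1.11 and 0.125 CPM in sh2-Ift88 and at 0, 1.04 and 3.16 CPM in controls. The 3 genes thus had different orders of libraries, and none was called. Mov10l1 was the 1 gene of the 5 tested with every sh2-Ift88 library above every control, beside 4.70% of all genes.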

How the data were processed

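The 6 libraries are brain tumours of the model, 3 labelled sh2-Ift88 and 3 control. Per the labels' protocols, a stranded TruSeq kit for total RNA was used. BWA and mm9 are named by the submitters' processing notes. Counting program, annotation, strand setting and the treatment of multiply aligned reads were not given in the sources used here. Each deposited table holds the raw read counts per gene of 1 library, as whole numbers without normalization. Its closing tallies were left out of the library sums. The tally for no feature held 18.8% to 39.5% of the reads in gene rows and closing tallies together.

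Counts were fitted over all genes with edgeR 4.0.16 in R 4.3.3 (filterByExpr, TMM factors, robust quasi-likelihood test, two-sided, Benjamini-Hochberg adjustment, threshold 0.05), with no covariate, and the 10 rows were read from that fit. Intervals are 95% and cover the spread between these libraries. List levels are means of log2(CPM + 0.5). Levels per kilobase used the union of exons in GENCODE M21 (GRCm38), for lengths and names only. The script was tested on simulated data with a dispersion of 0.05, against a median of 0.182 over all genes tested here. That test checks the code and gives no power for these libraries. Correlations and ratios used exact permutation over libraries in Python 3.11.15.

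Members and lists were chosen with earlier results of these data known. Named genes are the 10, Ift88, from each list the 3 of smallest p with at least 1 CPM, and the 3 genes most alike to Uhrf1 and Dnmt3a; markers, Gm rows and Glt8d2 were named after their values were seen. A gene that this rule names is not reported here. Alternatives were DESeq2 1.42.0 and its size factors, limma-voom 3.58.1, library totals, robust=FALSE, other filters, each library left out, and a term for or a split by olfactory receptor reads. Library totals without 4 gene rows were added after seeing the data.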

Additional observations from a re-analysis of the deposited data

How the results depend on the processing

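No paired analysis was possible because the labels give no replicate numbers: those used here were assigned in accession order within each group and pair nothing. None of the 10 genes was called in any of the 18 alternatives. Over all genes,DESeq2 called 58 (45 higher, 13 lower) and edgeR without a filter called 6 (5 higher, 1 lower), against 0 with the main settings and in all other alternatives; the cause was not tested. Uhrf1, Tet2, Tet3, Hells and Dnmt3a kept a lower estimate in all 17 alternatives that give one. With each library left out in turn, the log2 fold change of Uhrf1 ran from -1.28 to -0.74. Uhrf2, whose estimate was 0.03, turned to -0.35 with library totals alone, -0.015 without a filter, -0.10 with a term for olfactory receptor reads, -0.093 within the libraries with many such reads, -0.15 within those with few and -0.11 with library totals without 4 gene rows; with libraries left out in turn it ran from -0.21 to 0.15. With libraries left out in turn, Tet1 ran from -0.14 to 1.23. Within the libraries with few olfactory receptor reads, where sh2-Ift88 1 stands alone and is assumed to vary like the controls, Tet1 was -0.17, Dnmt1 0.0060 and Dnmt3b 0.10, and within those with many Tdg was -0.054. Library totals alone moved the median of all genes to -0.33 and that of the 10 to -0.61. The Pearson r of Uhrf1 and Dnmt1 with the replication and mitosis list turned to -0.77 and -0.70 without sh2-Ift88 2 and control 3; with replication genes alone they were 0.43 and 0.55 without those libraries, and that of Hells turned to -0.94. Depth limits Mov10l1, with 2 reads or fewer in each control, and no fold is given for it.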
